A study of Mus musculus with 6 samples.

Results

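Cytochrome P450 genes encode haem enzymes that insert oxygen into small molecules, and the mouse olfactory mucosa is one of the tissues richest in them outside the liver. Members of the low-numbered families oxidise inhaled chemicals, odorants and fatty acids, while others make or break down oxysterols, vitamin D, retinoic acid and steroids. In the olfactory epithelium much of this activity belongs to sustentacular cells, the supporting cells that span the epithelium, and to the glands beneath it. The genes described here are all rows of the deposited expression table whose symbol consists of Cyp, a family number, subfamily letters and a gene number, which leaves out Cyp51. The rule found 96 of 44519 rows, for 94 symbols, since Cyp2g1 and Cyp2a5 each have a second row. One row joins Cyp4v3 with its neighbour Klkb1. The sustentacular genes Cyp2g1, Cyp2a5 and Cyp1a2, were separated from the rest.

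The study compared horizontal basal cells (HBCs), the reserve stem cells at the base of the olfactory epithelium, with and without prolonged inflammation. All mice carried the Krt17-EGFP reporter, and GFP-positive cells were sorted from the olfactory neuroepithelium for bulk RNA sequencing. The 3 control libraries (replicates 1, 2 and 4) came from mice with the reporter alone and are labelled as not given doxycycline. The 3 TNF libraries (replicates 1, 3 and 4) came from mice that also carried Cyp2g1-rtTA and TRE-TNF, labelled with 6 weeks of doxycycline. In those mice the Cyp2g1 promoter, active in sustentacular cells, drives the doxycycline-dependent activator of the TNF transgene. One of the genes described here is therefore the source of the driver, and whether the driver alters the native Cyp2g1 gene was not tested. Genotype, transgene and doxycycline differ together between the groups and cannot be told apart. Age, and whether a library came from 1 animal, are not given either, so p-values measure the spread between these samples.

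Values are FPKM, a fragment level scaled by gene length and library size, and the read depth behind them is unknown. Control replicate 4 and TNF replicate 1 stood apart within their groups, with Pearson correlations across genes of 0.922 to 0.931 and 0.909 to 0.912 to the other libraries of the group, against 0.972 and 0.983 between those other libraries. HBC markers were present in every library (12 of 12 tested, 5 higher in TNF, against 10.9% of all tested rows, with a summed level of 801 to 3495 FPKM in control and 5141 to 7940 FPKM in TNF libraries). The largest part of that sum is a joined Krt14 and Krt17 row, at 402 to 2265 FPKM in control and 3645 to 5651 FPKM in TNF libraries. Krt17 is the gene of the sorting reporter, so the sum is not independent of the sort. The controls also held many transcripts of other cells. Markers of immature olfactory neurons summed to 3814 to 8350 FPKM in control and 121 to 320 FPKM in TNF libraries, and those of mature neurons to 3279 to 6461 and 36.5 to 1133 FPKM. Myeloid markers summed to 1587 FPKM in control replicate 4 and 185 to 565 FPKM elsewhere, and fibroblast markers to 1056 and 1522 FPKM in TNF replicates 3 and 4, 41.5 FPKM in TNF replicate 1 and 135 to 525 FPKM in controls. Below, library values follow the order of replicates 1, 2 and 4 for controls and 1, 3 and 4 for TNF. In bulk RNA, fewer cells of a type and less RNA per cell cannot be told apart.

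Most of the gene family was at or near 0 FPKM in these cells. Of the 96 rows, 34 were listed at 0 in all 6 libraries, 29 had values but stayed below 1 FPKM everywhere, and 4 reached 1 FPKM in only 1 or 2 libraries. The remaining 29 reached 1 FPKM in at least 3 libraries and were tested. Over the whole table, 27442 of 44519 rows had a value above 0 in some library and 15037 were tested. The P450 shares at 0 throughout and tested are thus near those of all rows. The large subfamilies best known from the liver were the emptiest. Of 15 Cyp2c rows 11 were at 0 throughout and 0 were tested, the highest value being 0.887 FPKM for Cyp2c44 in control replicate 4, and all 5 Cyp4a rows were at 0. Of 7 Cyp3a rows 1, Cyp3a13, was tested, and of 8 Cyp2d rows 1, Cyp2d22, was tested. The steroid-making genes Cyp11a1, Cyp17a1, Cyp19a1 and Cyp21a1 were at most at 0.448 FPKM (Cyp19a1 in TNF replicate 3), and Cyp11b1 and Cyp11b2 were at 0. Rows that stand at 0 beside close relatives can reflect how shared reads were assigned: 60.3% of the 50-base stretches of Cyp2c40 transcripts, for example, also occur in transcripts of other genes.

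Between the groups, 2 of the 29 tested rows were higher and 9 were lower in TNF libraries at an adjusted p below 0.05 (limma on log2(FPKM + 1), adjusted over all 15037 rows tested). The 11 calls are 37.9% of the tested P450 rows, where 38.0% of all tested rows were called. By direction, 6.9% were higher and 31% lower, against 10.9% and 27.2% of all tested rows, so the counts are near the background. Cyp7b1 and Cyp2r1 rose. Cyp2g1, Cyp2j12, Cyp1a2, Cyp3a13, Cyp4f18, Cyp1a1, Cyp4f15, the second Cyp2g1 row and Cyp46a1 fell. Cyp2r1 reached 1 FPKM only in TNF libraries, and Cyp1a1, Cyp46a1 and Cyp4f18 only in controls. These rows met the filter through 1 group alone, so their calls are not independent of it. Without the filter Cyp2r1 and Cyp46a1 kept their calls in limma (adjusted p = 0.00896 and 0.0221). Cyp1a1 and Cyp4f18 then lost theirs (adjusted p = 0.058 and 0.0675). So did Cyp1a2, Cyp4f15 and the second Cyp2g1 row (adjusted p = 0.0507, 0.0797 and 0.076 in limma). Without the filter 3 P450 rows were higher and 6 lower, among them Cyp21a1, Cyp2c44 and Cyp4x1, which the filter had left out. The groups did not overlap at 11 rows with TNF below and at 6 with TNF above, against 36.2% and 16.8% of all tested rows, or 53.0% in either direction. The median log2 difference was −0.10 over the 29 rows and −0.22 over all rows tested. Cyp2g1, Cyp2j12 and Cyp3a13 kept their call under each of the 17 alternative settings run, and each of the other 8 calls was lost under at least 1. Over all rows 1635 were higher and 4083 lower, which became 2342 and 3189 with median-of-ratios scaling and 240 and 9485 when scaled to HBC markers. Leaving out 1 library at a time gave 2 to 5 higher and 4 to 10 lower rows, with 5 higher without TNF replicate 1. There were 5, 6 and 7 lower without control replicates 1, 2 and 4, and 10, 5 and 4 lower without TNF replicates 1, 3 and 4. Without both control replicate 4 and TNF replicate 1 there were 7 higher and 15 lower.

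**Figure D1:**
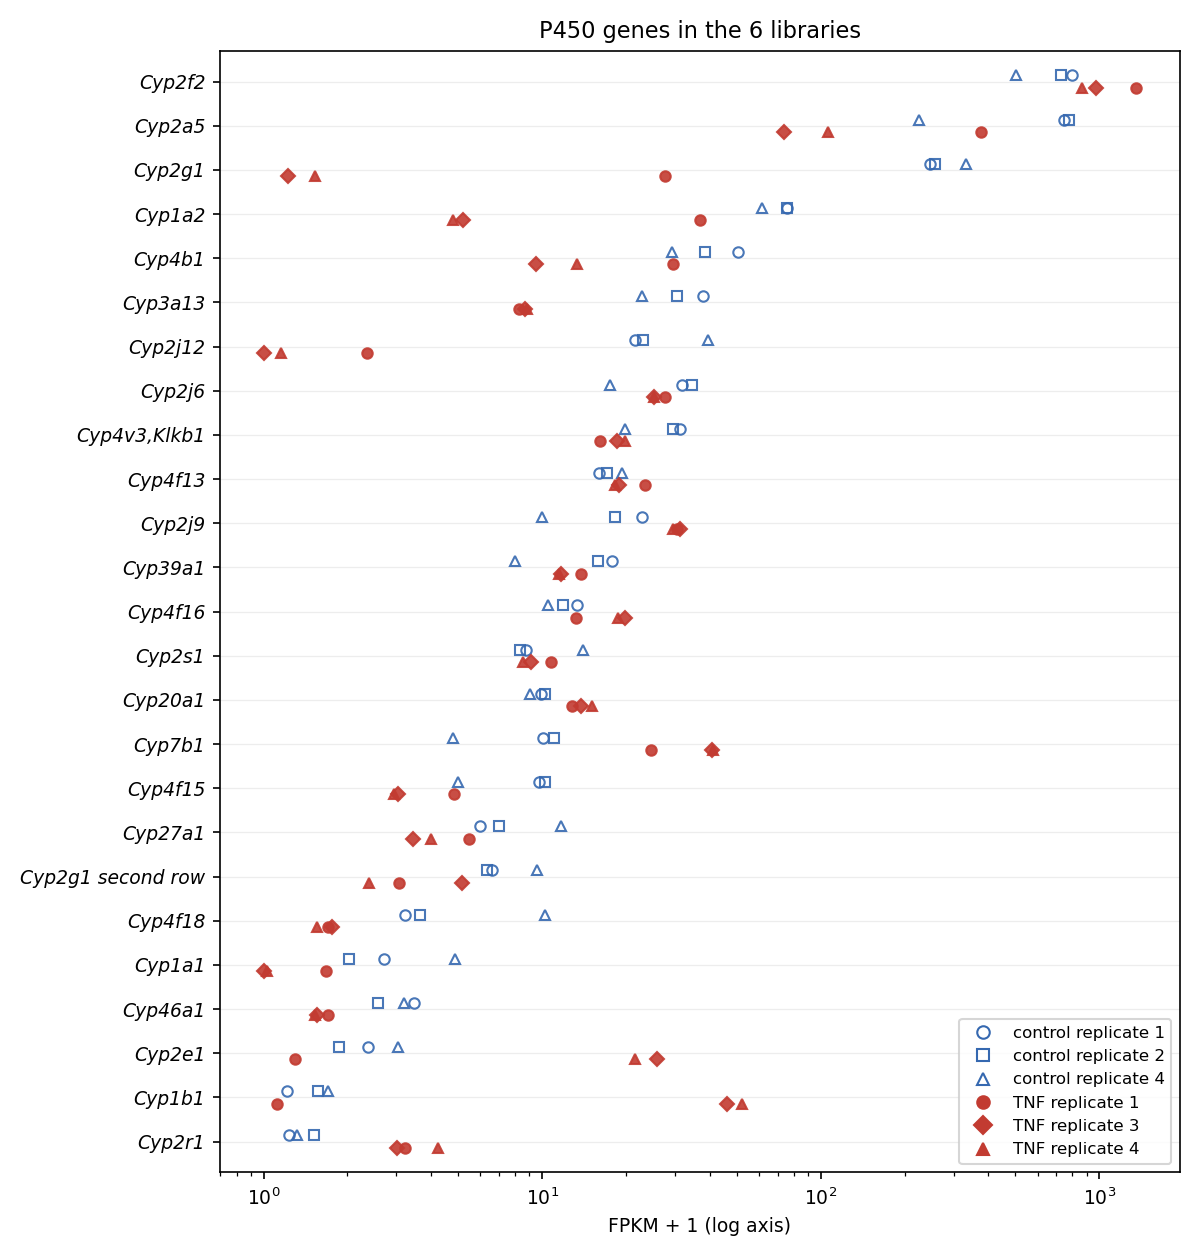
FPKM + 1 on a log axis for 24 P450 rows named by rule and Cyp1b1, ordered by control mean, with open blue symbols for the 3 control and filled red symbols for the 3 TNF libraries and 1 symbol shape per replicate number. Cyp2g1 runs from 246 to 332 FPKM in controls and from 0.221 to 26.5 FPKM in TNF libraries, while Cyp1b1 and Cyp2e1 are high in TNF replicates 3 and 4 and low in the other 4 libraries.

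**Figure D2:**
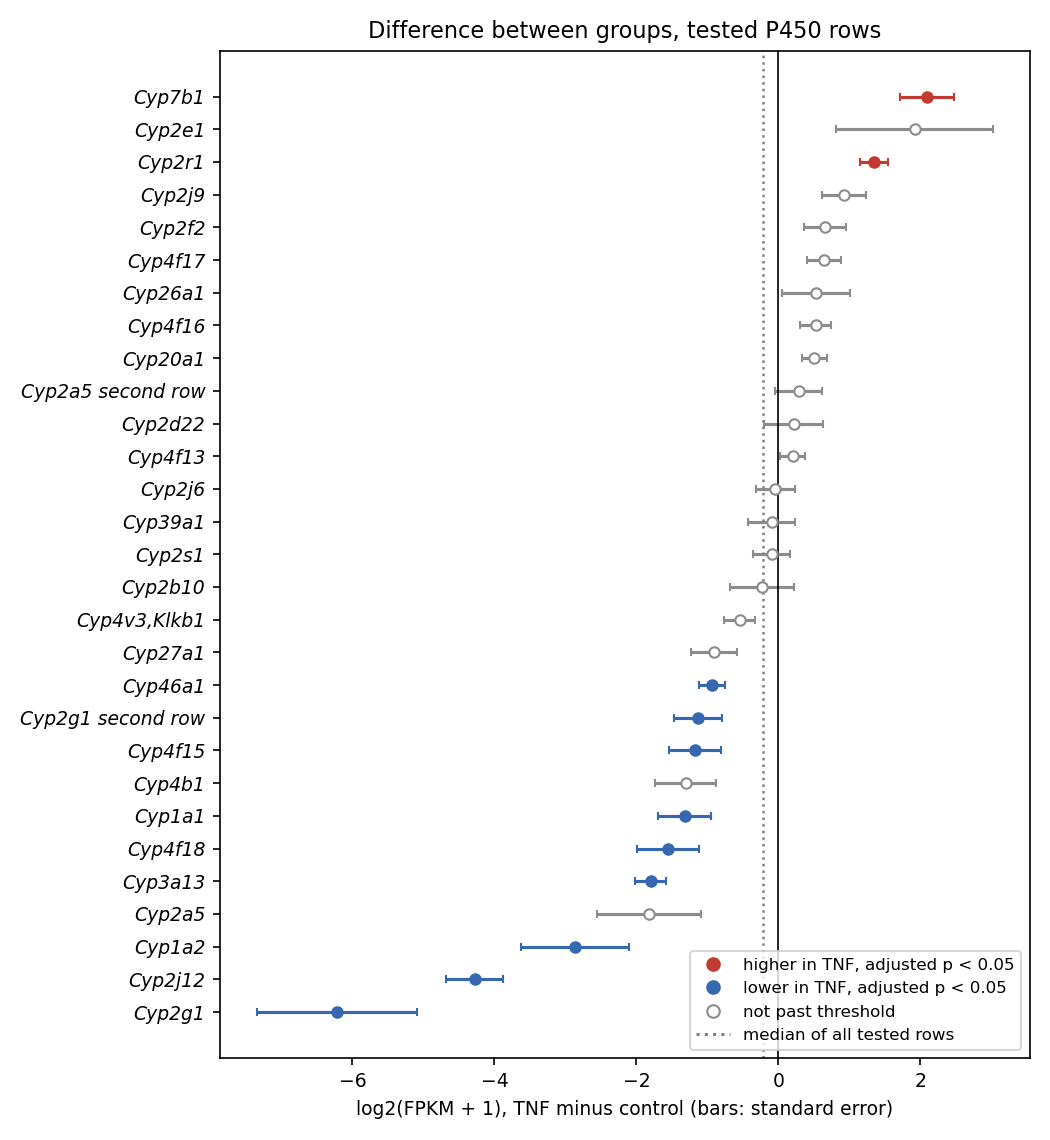
Difference in mean log2(FPKM + 1), TNF minus control, with its standard error, for the 29 tested P450 rows, and a dotted line at the median of all tested rows (−0.22). Filled red and blue points passed an adjusted p of 0.05 as higher or lower. Cyp7b1 lies at 2.099 and Cyp2g1 at −6.22.

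Of the 3 sustentacular genes 2 fell, Cyp2g1 and Cyp1a2, and Cyp2a5 missed the threshold. Of the 91 rows of other genes 24 were tested, of which 2 rose and 6 fell, with a median of −0.07. These are 8.33% and 25%, against 10.9% and 27.2% of all tested rows, so they are near the background. Cyp2g1 (chromosome 7, 26808917 to 26834891, mm10), an olfactory enzyme of steroid and odorant oxidation, had 246, 256 and 332 FPKM in controls. The TNF libraries had 26.5, 0.221 and 0.533 FPKM. The groups were far apart, with TNF replicate 1 between the controls and the other TNF libraries, and the log2 difference was −6.22 ± 1.13 (SE, n = 3 per group, adjusted p = 0.00583). Its second row, at the same position, was at 5.61, 5.33 and 8.55 FPKM in controls and 2.06, 4.14 and 1.39 FPKM in TNF libraries. That row passed the test (adjusted p = 0.0378) but lost the call without any 1 library other than TNF replicate 3, and in TNF replicates 3 and 4 it exceeded the main row. What this second row counts is not known, and it is included in the 9 falls. Both rows run past the annotated end of the gene, at 26821205, so their levels are uncertain.

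Cyp1a2 (chromosome 9, 57676937 to 57683655), which oxidises caffeine and aromatic amines, was at 74.9, 74.9 and 60.7 FPKM in controls and 35.9, 4.18 and 3.79 FPKM in TNF libraries. Every TNF library lay below every control, with TNF replicate 1 again the highest of its group. The difference of −2.87 ± 0.76 passed the test (adjusted p = 0.0248), and of the 6 omissions of a library the call held in 1, that of TNF replicate 1 (adjusted p of 0.000195 to 0.0793, with −2.36 to −3.83 as the difference). Without the filter on low values the Cyp1a2 difference missed the threshold in limma (adjusted p = 0.0507). Cyp2a5 (chromosome 7, 26835305 to 26843548), the coumarin and nicotine hydroxylase of the nasal mucosa, was at 745, 776 and 224 FPKM in controls and 376, 73.0 and 105 FPKM in TNF libraries. Here the groups overlapped, because TNF replicate 1 stood above control replicate 4. The difference of −1.82 ± 0.73 missed the threshold (adjusted p = 0.0921), and it was −2.52 without TNF replicate 1 (adjusted p = 0.0155, within 0.0155 to 0.251 over the 6 omissions). Of the 50-base stretches of Cyp2a5 transcripts, 28.1% are shared with Cyp2a4, whose own row was at most at 0.369 FPKM, so the Cyp2a5 level is uncertain.

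The proportions of these genes also differed between libraries. The ratio of the main Cyp2a5 row to the main Cyp2g1 row was 3.03, 3.03 and 0.675 in controls and 14.2, 331 and 198 in TNF libraries. In TNF replicates 3 and 4 the divisor was below 1 FPKM (0.221 and 0.533). The second Cyp2g1 row, left out of the ratio, had 4.14 and 1.39 FPKM there, so the size of those ratios is uncertain. All TNF ratios exceeded all control ratios (exact permutation test on the ratio, two-sided p = 0.1, the smallest that 3 against 3 libraries allow). Among the controls, replicate 4 had the highest Cyp2g1 and the lowest Cyp2a5. Other sustentacular markers gave a mixed picture. Of 14 such genes tested 6 fell and 3 rose, with a median of −0.40, and their summed level was 4472 to 9920 FPKM in control and 7658 to 12260 FPKM in TNF libraries, none being at 0. Of all tested rows 27.2% fell and 10.9% rose. Sec14l3, a lipid-binding protein gene, fell from 407 ± 138 to 61.4 ± 47.3 FPKM and Sult1d1 from 331 ± 61.5 to 105 ± 22.6 FPKM (SD, n = 3 each). Cbr2, a carbonyl reductase, was at 3916 ± 1742 and 4786 ± 2636 FPKM (adjusted p = 0.749), and the odorant-conjugating enzyme Ugt2a1 at 1415 ± 623 and 1216 ± 194 FPKM (adjusted p = 0.867). The simple keratins Krt8 and Krt18 and the transcription factor Hes1, which other epithelial cells also express, were the 3 that rose. Cbr2 is the largest part of the summed level, which also includes these 3. That sum therefore does not show the direction of the other members. Markers of Bowman glands, a further P450-rich source, summed to 2998, 3059 and 1955 FPKM in controls and 4643, 858 and 1112 FPKM in TNF libraries, highest in TNF replicate 1, and 0 of 6 passed with limma, also at an unadjusted p under 0.05. Of all tested rows 38.0% passed. The parts of sustentacular and glandular RNA in the P450 values were not tested.

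Promoter sequences show where these genes differ in letters near their start. RefSeq windows (GRCm38.p6) matched 73 of the 94 symbols, with 83 windows, and the 250 bases before the start were read on the gene's strand, 5′ to 3′. The 4 windows below were chosen for 2 of the sustentacular genes, for Cyp2f2, the most abundant member, with higher values in TNF libraries, and for Cyp2r1, which rose. Capitals mark TATAAA, the TATA box core, and TTGGCA, a core of nuclear factor I sites, a factor family linked to nasal expression of Cyp2a genes. Both were searched on both strands.
Cyp2a5: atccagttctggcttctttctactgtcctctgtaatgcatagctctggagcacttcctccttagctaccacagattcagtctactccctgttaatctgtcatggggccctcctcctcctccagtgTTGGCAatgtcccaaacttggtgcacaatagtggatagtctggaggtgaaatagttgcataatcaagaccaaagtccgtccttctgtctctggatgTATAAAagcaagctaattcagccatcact
Cyp1a2: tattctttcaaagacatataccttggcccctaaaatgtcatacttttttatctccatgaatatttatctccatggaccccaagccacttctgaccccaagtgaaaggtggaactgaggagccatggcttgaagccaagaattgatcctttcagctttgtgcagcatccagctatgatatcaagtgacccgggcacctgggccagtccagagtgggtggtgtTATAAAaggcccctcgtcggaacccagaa
Cyp2f2: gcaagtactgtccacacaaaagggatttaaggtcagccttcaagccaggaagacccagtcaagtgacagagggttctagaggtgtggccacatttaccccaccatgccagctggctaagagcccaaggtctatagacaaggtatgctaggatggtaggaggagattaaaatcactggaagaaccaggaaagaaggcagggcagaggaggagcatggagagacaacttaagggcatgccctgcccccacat
Cyp2r1: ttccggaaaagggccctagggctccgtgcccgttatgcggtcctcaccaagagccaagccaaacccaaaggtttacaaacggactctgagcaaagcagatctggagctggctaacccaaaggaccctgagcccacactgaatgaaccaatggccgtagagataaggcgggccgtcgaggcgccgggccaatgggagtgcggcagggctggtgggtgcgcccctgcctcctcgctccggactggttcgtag
They lie at chr7:26835089-26835338 (plus strand) for Cyp2a5, chr9:57683656-57683905 (minus strand) for Cyp1a2, chr7:27119705-27119954 (plus strand) for Cyp2f2 and chr7:114562973-114563222 (minus strand) for Cyp2r1. In both Cyp2a5 and Cyp1a2 TATAAA begins 29 bases before the RefSeq start. Cyp2a5 also holds TTGGCA, beginning 125 bases before the start, and the windows of Cyp2f2 and Cyp2r1 hold neither motif. Over all P450 windows 33.7% hold TATAAA, against 12.4% of all 32851 windows, and 21.7% hold TTGGCA, against 12.3%. The Cyp2r1 window has 16 CG pairs, where the median is 2 over P450 windows and 6 over all windows. The dioxin response core TNGCGTG, bound by the aryl hydrocarbon receptor, is in 1 P450 window (1.21%), that of Cyp2c68, and in 4.10% of all windows. These matches are letters in a window and not tested sites.

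Cyp2f2 (chromosome 7, 27119909 to 27133660), which oxidises naphthalene in airway and nasal epithelium, lies in the same chromosome 7 cluster as Cyp2g1 and Cyp2a5. It was at 797, 725 and 500 FPKM in controls and 1354, 974 and 867 FPKM in TNF libraries. All TNF values were above all control values, yet the difference of 0.66 ± 0.30 missed the threshold (adjusted p = 0.128). It passed after median-of-ratios scaling (0.91, adjusted p = 0.0458, within 0.0458 to 0.411 over the alternatives) and was −0.80 after scaling to HBC markers. Its exons overlap Gm15883 on the opposite strand, and the sources used here do not say how strand was handled in counting. Among its other neighbours, Cyp2s1, an epithelial enzyme, was at 9.37 ± 3.19 and 8.47 ± 1.15 FPKM (adjusted p = 0.802), with exons that overlap Gm26707. Cyp2b10, a drug-inducible enzyme in liver, was at 3.92 ± 2.14 and 3.07 ± 1.68 FPKM.

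Shares in P450 expression were taken for Cyp2f2, Cyp2a5, Cyp2g1, Cyp1a2, Cyp4b1, Cyp7b1 and Cyp1b1 only, a chosen set. Those of Cyp2a5 and Cyp1b1 overlapped between the groups, and the others did not. By level, 53.0% of all tested rows did not overlap in either direction. The summed FPKM of all 96 rows was 2169, 2118 and 1362 in controls and 2025, 1349 and 1276 in TNF libraries, and the groups overlapped (exact permutation, two-sided p = 0.2). Cyp2f2 made up 36.7%, 34.3% and 36.7% of that sum in controls and 66.9%, 72.2% and 68.0% in TNF libraries. The main Cyp2g1 row made up 11.4%, 12.1% and 24.4% in controls and 1.31%, 0.016% and 0.042% in TNF libraries. For both shares the groups did not overlap, and both gave the smallest p that 3 against 3 libraries allow (exact permutation, two-sided p = 0.1). The Cyp2g1 share leaves out its second row, which exceeded the main row in TNF replicates 3 and 4. The Cyp2a5 share was 34.4%, 36.7% and 16.5% in controls and 18.6%, 5.41% and 8.26% in TNF libraries, with control replicate 4 below TNF replicate 1 (exact permutation, two-sided p = 0.2). The mean share went from 3.81% to 0.794% for Cyp1a2, from 2.04% to 1.001% for Cyp4b1 and from 0.389% to 2.42% for Cyp7b1 (exact permutation, two-sided p = 0.1 for each). A share moves with the levels of the other members, so these are not independent measurements. By mean level Cyp2f2 and Cyp2a5 ranked first and second in both groups, while the main Cyp2g1 row ranked 3 in controls and 15 in TNF libraries.

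**Figure D3:**
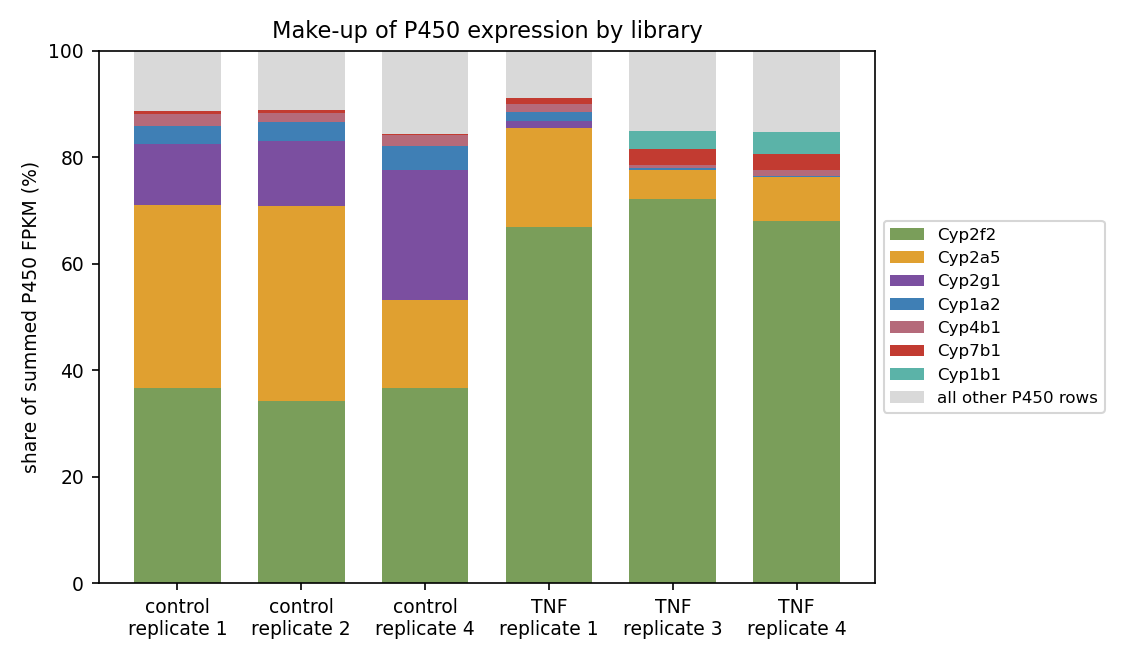
Share of the summed FPKM of 96 P450 rows (percent) taken by 7 genes and by all other rows, 1 bar per library. Cyp2f2 takes 34.3% to 36.7% in controls and 66.9% to 72.2% in TNF libraries. The main Cyp2g1 row takes 11.4% to 24.4% in controls and at most 1.31% in TNF libraries.

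Cyp2j12 had the largest fall after Cyp2g1, within a subfamily that makes epoxides of arachidonic acid. Cyp2j12 (chromosome 4, 96099318 to 96141152) was at 20.5, 22.1 and 38.5 FPKM in controls and 1.35, 0 and 0.151 FPKM in TNF libraries. The groups were well separated, and the difference was −4.28 ± 0.40 (adjusted p = 0.00068). Control replicate 4, the highest, was also the library with the highest neuron and myeloid marker sums. The part of those cells was not tested. Cyp2j6 and Cyp2j9 lie on the same chromosome. Cyp2j6 was at 30.7, 33.6 and 16.6 FPKM in controls and 26.7, 24.2 and 24.2 FPKM in TNF libraries (adjusted p = 0.915). Cyp2j9 was at 21.8, 17.2 and 8.95 FPKM in controls and 29.6, 30.3 and 28.6 FPKM in TNF libraries, without overlap (0.92 ± 0.31, adjusted p = 0.0549). The Cyp2j9 difference passed without control replicate 1 or without control replicate 4 (adjusted p = 0.0371 and 0.0457, within 0.0371 to 0.142 over the 6 omissions) and after median-of-ratios or upper-quartile scaling (1.16 and 1.06, adjusted p = 0.0234 and 0.0396), and was −0.46 after scaling to HBC markers (adjusted p = 0.425). Of the other 5 Cyp2j rows 3 were at 0 throughout.

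Cyp3a13, the member of the drug-oxidising 3a subfamily expressed here, fell in every omission of a library. It was at 36.7, 29.5 and 21.9 FPKM in controls and 7.24, 7.67 and 7.79 FPKM in TNF libraries (chromosome 5, 137892932 to 137921619). The fall of −1.80 ± 0.22 (adjusted p = 0.00148) ran from −1.99 to −1.63 over the 6 omissions of 1 library. Cyp4b1, which activates furan toxins in airway epithelium, was at 49.3, 37.4 and 28.2 FPKM in controls and 28.4, 8.49 and 12.4 FPKM in TNF libraries. TNF replicate 1 lay just above control replicate 4, and the difference of −1.31 ± 0.43 missed the threshold (adjusted p = 0.0535). It was −1.77 without TNF replicate 1 (adjusted p = 0.00476, within 0.00476 to 0.161 over the 6 omissions).

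Cyp1a1 and Cyp1b1 are targets of the aryl hydrocarbon receptor, a sensor of dioxins and plant compounds. Cyp1a1 (chromosome 9, 57697613 to 57703822), its best-known target, was low, at 1.70, 1.03 and 3.85 FPKM in controls and 0.669, 0 and 0.0260 FPKM in TNF libraries. No TNF library reached the controls (−1.32 ± 0.37, adjusted p = 0.0296), but the call held in just 2 of the 6 omissions (adjusted p of 0.0189 to 0.101). Cyp1b1 (chromosome 17, 79706953 to 79715041), a further target that oxidises estradiol and polycyclic hydrocarbons, was high in part of the TNF group. Controls had 0.217, 0.564 and 0.709 FPKM, and TNF libraries had 0.116, 45.2 and 51.0 FPKM. With so few libraries at 1 FPKM it was not tested; without the filter its difference was 3.23 ± 1.503 (adjusted p = 0.187), and 5.05 when TNF replicate 1 was also left out (adjusted p = 0.00281). Cyp1b1 was singled out after its values were seen.

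Cyp2e1, the ethanol-oxidising enzyme, was likewise high in TNF replicates 3 and 4 alone. Controls had 1.36, 0.870 and 2.04 FPKM, and TNF libraries had 0.297, 24.9 and 20.6 FPKM. The difference of 1.92 ± 1.10 missed the threshold (adjusted p = 0.218) and was 3.31 without TNF replicate 1 (adjusted p = 0.000664, within 0.000664 to 0.503 over the 6 omissions). The libraries with high Cyp1b1 and Cyp2e1 were those with the highest fibroblast and endothelial sums, 1056 and 1522 FPKM and 75.6 and 122 FPKM. TNF replicate 1, low for both genes, had 41.5 and 2.91 FPKM of those markers, and Pdgfra, a fibroblast receptor, was at 0.143, 29.7 and 34.9 FPKM in TNF libraries. In controls the fibroblast sum was 135 to 525 FPKM and the endothelial sum 20.1 to 28.5 FPKM. No fibroblast marker was at 0, and of the endothelial ones Kdr was at 0 in TNF replicate 1. Dcn, a matrix proteoglycan gene, was at 30.7 FPKM in TNF replicate 1 and 511.7 and 791 FPKM in the other TNF libraries. Col1a2, Col3a1 and Lum, of the same list, were also highest in TNF replicates 3 and 4. Col1a1 was not, at 84.6, 171 and 11.7 FPKM in controls and 5.62, 113 and 105 FPKM in TNF libraries. Control replicate 2, the highest for Col1a1, had low Cyp1b1 and Cyp2e1. The part of these cells in the values of both genes was not tested. The receptor gene Ahr was at 9.30 ± 0.189 and 14.7 ± 7.96 FPKM (adjusted p = 0.484), and of 5 other target genes tested 0 passed with limma and 1 rose at an unadjusted p under 0.05. Of all tested rows 38.0% passed. Ahr was at 5.56, 18.7 and 19.9 FPKM in TNF libraries, so TNF replicate 1 lay below the controls. The target Tiparp had 50.9, 35.7 and 30.7 FPKM in controls and 16.0, 66.6 and 74.7 FPKM in TNF libraries. Ahrr, a further target that did not pass the filter, was at 0.270, 0.204 and 1.44 FPKM in controls and 0.0162, 0.102 and 0.103 FPKM in TNF libraries. Every TNF library was thus below every control for Ahrr. Nqo1, Aldh3a1, the joined Ugt1a row and Nfe2l2 did not split as Tiparp did, and the split was not tested.

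**Figure D4:**
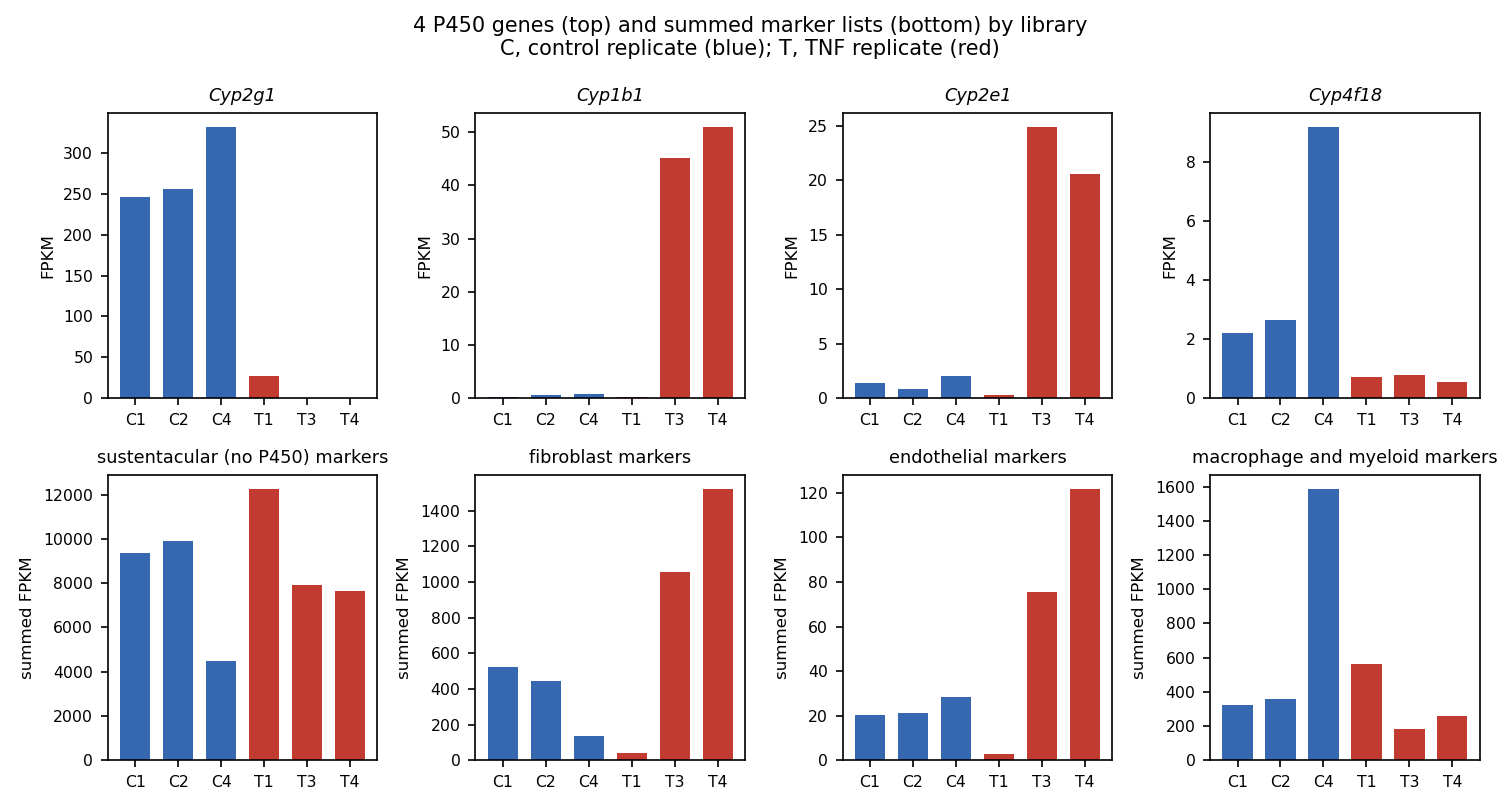
FPKM of 4 P450 genes (top row) and summed FPKM of 4 marker lists (bottom row) in each library, control in blue and TNF in red, on linear axes from 0. Cyp1b1 and Cyp2e1 are high in TNF replicates 3 and 4, where fibroblast and endothelial markers are also high, and Cyp4f18 is highest in control replicate 4, where the myeloid sum is 1587 FPKM. Cbr2 is the largest part of the sustentacular sum, which includes Krt8, Krt18 and Hes1.

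The Cyp4f subfamily, whose enzymes shorten or inactivate fatty acids and leukotrienes, split by gene. Cyp4f18 (chromosome 8, 71951038 to 72009626), the leukotriene hydroxylase of leukocytes, was at 2.22, 2.65 and 9.21 FPKM in controls and 0.708, 0.767 and 0.560 FPKM in TNF libraries (−1.56 ± 0.44, adjusted p = 0.0307). Its high value in control replicate 4 coincided with the myeloid sum of 1587 FPKM, against 321 and 358 FPKM in control replicates 1 and 2. TNF replicate 1, at 0.708 FPKM of Cyp4f18, had a myeloid sum of 565 FPKM, of which Lyz2 made up 487 FPKM. The part of myeloid cells was not tested. The Cyp4f18 row extends past the annotated end of the gene, and its exons overlap Zfp961 on the opposite strand, so its level is uncertain. Without control replicate 4 the difference was −1.03 and still passed (adjusted p = 0.00687), and the call was lost when any 1 TNF library was left out (adjusted p of 0.00687 to 0.0886 over the 6 omissions). Cyp4f15 fell from 7.31 ± 2.89 to 2.60 ± 1.06 FPKM (−1.17 ± 0.36, adjusted p = 0.0412), a call that held in 2 of 6 omissions. Cyp4f13 was at 16.5 ± 1.71 and 19.2 ± 2.74 FPKM (adjusted p = 0.411) and Cyp4f16 at 10.9 ± 1.40 and 16.3 ± 3.52 FPKM (adjusted p = 0.108). Cyp4f16 shares 16.3% of its 50-base stretches with Cyp4f37. The joined Cyp4v3 and Klkb1 row was at 25.8 ± 6.07 and 17.1 ± 1.84 FPKM (adjusted p = 0.0972), and its reads cannot be divided between the 2 genes.

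Among the sterol enzymes, Cyp7b1 rose and Cyp46a1 fell. Cyp7b1 (chromosome 3, 18071950 to 18243338), which hydroxylates oxysterols on the way to bile acids, was at 9.05, 9.996 and 3.77 FPKM in controls and 23.7, 39.8 and 40.1 FPKM in TNF libraries. Every TNF library was above every control (2.099 ± 0.38, adjusted p = 0.00578), and the call held in each of the 6 omissions, with differences of 1.72 to 2.34. After scaling to HBC markers the difference was 0.76 and missed the threshold (adjusted p = 0.215, within 0.000336 to 0.215 over the alternatives). Within each group the library with the lowest Cyp7b1 also had the lowest fibroblast sum (135 FPKM in control replicate 4 and 41.5 FPKM in TNF replicate 1). Between the groups the order differed. Control replicates 1 and 2 had fibroblast sums of 525 and 445 FPKM, above TNF replicate 1, and lower Cyp7b1 than it. The part of these cells was not tested. Cyp46a1, the neuronal enzyme that clears brain cholesterol, was at 2.46, 1.58 and 2.19 FPKM in controls and 0.703, 0.560 and 0.524 FPKM in TNF libraries (−0.94 ± 0.18, adjusted p = 0.00752). The neuron marker sums given above were lower in the same libraries, and their part was not tested. Cyp27a1, a mitochondrial sterol oxidase, was at 4.96, 6.02 and 10.7 FPKM in controls and 4.47, 2.45 and 2.99 FPKM in TNF libraries (adjusted p = 0.0689), again highest in control replicate 4. Cyp39a1, an oxysterol hydroxylase, was at 12.9 ± 5.18 and 11.3 ± 1.28 FPKM (adjusted p = 0.844).

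Genes that act beside Cyp7b1 in oxysterol handling were measured as well. Ch25h, the cholesterol hydroxylase whose product Cyp7b1 converts, rose from 15.9 ± 6.89 to 70.6 ± 8.63 FPKM (2.15 ± 0.30, adjusted p = 0.00213). The joined Hsd3b7 and Setd1a row, the former acting after Cyp7b1, rose from 7.47 ± 0.482 to 13.5 ± 0.0578 FPKM (adjusted p = 0.0119). The sterol exporter Abca1 rose from 1.71 ± 0.373 to 9.56 ± 3.15 FPKM (adjusted p = 0.00305). Gpr183, a leukocyte receptor for the oxysterols made along this route, fell from 4.15 ± 2.83 to 0.238 ± 0.0715 FPKM (adjusted p = 0.00653). Controls had 2.47, 2.56 and 7.41 FPKM of Gpr183, highest in control replicate 4, as was the myeloid sum (321, 358 and 1587 FPKM). TNF replicate 1 had a myeloid sum of 565 FPKM and 0.252 FPKM of Gpr183. No TNF library reached 1 FPKM of Gpr183, so it met the filter through the controls alone. Of the tested markers 6 of 9 myeloid, 2 of 3 T cell and 3 of 3 B cell genes fell, against 27.2% of all tested rows. The part of these cells in the Gpr183 value was not tested. Of the 8 tested genes of the oxysterol, bile acid and vitamin D list 4 rose and 1 fell, with a median of 0.59. Of all tested rows 10.9% rose and 27.2% fell. Cyp51, the sterol demethylase outside the name rule, was at 57.2 ± 3.06 and 47.9 ± 12.8 FPKM (adjusted p = 0.355), and 0 of the 3 such genes tested passed with limma, 1 being lower at an unadjusted p under 0.05. The prostanoid synthases Ptgis and Tbxas1, the other 2, had adjusted p-values of 0.482 and 0.0805.

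Of the vitamin D genes, Cyp2r1 and the receptor gene Vdr rose from low levels. Cyp2r1 (chromosome 7, 114550166 to 114562972), the main vitamin D hydroxylase of the liver, was at 0.234, 0.520 and 0.322 FPKM in controls and 2.21, 2.02 and 3.21 FPKM in TNF libraries. The rise of 1.35 ± 0.20 (adjusted p = 0.00267) held in each of the 6 omissions, while scaling to HBC markers gave 0.64 (adjusted p = 0.173, within 0.00232 to 0.173 over the alternatives). Levels this low give small differences on the log2(FPKM + 1) scale. Cyp27b1, which completes the active hormone, was at 0 to 0.0332 FPKM in controls and 0.102 to 0.444 FPKM in TNF libraries, and Cyp24a1, which degrades it, was listed at 0 in all. The receptor Vdr rose from 0.632 ± 0.243 to 4.05 ± 0.329 FPKM (1.64 ± 0.19, adjusted p = 0.00121). Cyp2r1 and Vdr reached 1 FPKM only in TNF libraries, so both met the filter through the group where they are high.

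Retinoic acid, which Cyp26 enzymes break down, has a list of 14 tested partner genes of which 5 rose and 2 fell, with a median of 0.73. Of all tested rows 10.9% rose and 27.2% fell. Cyp26a1 was at 3.003, 2.54 and 0.827 FPKM in controls and 1.26, 4.86 and 4.95 FPKM in TNF libraries, with overlap (adjusted p = 0.417). Cyp26b1 was at 0.213 to 0.297 FPKM in controls and 0.174, 0.950 and 1.05 FPKM in TNF libraries. In both genes TNF replicate 1 lay below the other TNF libraries. The retinol dehydrogenase Rdh10 rose from 2.57 ± 0.961 to 20.7 ± 7.72 FPKM (adjusted p = 0.00233), as did the dehydrogenase Dhrs9 from 0.286 ± 0.115 to 14.2 ± 8.67 FPKM (adjusted p = 0.00355). Dhrs9 reached 1 FPKM only in TNF libraries and met the filter through them alone. Crabp1, which binds retinoic acid in the cytoplasm, fell from 198 ± 67.0 to 11.0 ± 3.71 FPKM (−4.05 ± 0.34, adjusted p = 0.000478), and the fatty acid binding protein Fabp5 fell by 1.55 on the log2 scale (adjusted p = 0.00295). Rdh10 was at 11.8, 24.4 and 25.8 FPKM and Dhrs9 at 4.28, 20.2 and 18.1 FPKM in TNF libraries, both lowest in TNF replicate 1, where the fibroblast sum was 41.5 FPKM against 1056 and 1522 FPKM. In controls that sum was 135 to 525 FPKM, above TNF replicate 1. Rdh10 was at 1.57 to 3.49 FPKM and Dhrs9 at 0.173 to 0.403 FPKM in controls, both below TNF replicate 1. Crabp1 was highest in control replicate 4, as were the neuron sums. The parts of these cells were not tested. Cyp26c1 stayed at 0 in 5 libraries.

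The enzymes that serve all P450s were measured as a list. Por, the reductase that hands electrons to the microsomal enzymes, was at 176 ± 17.7 and 166 ± 35.4 FPKM (adjusted p = 0.723). Of 19 electron donor and haem genes tested 1 rose and 4 fell, with a median of −0.10. Of all tested rows 10.9% rose and 27.2% fell, so these counts do not exceed the background. Alas1, the first enzyme of haem synthesis, rose from 149 ± 22.7 to 343 ± 56.7 FPKM (1.19 ± 0.21, adjusted p = 0.00475). Uros, a later step of haem synthesis, fell from 34.3 ± 6.48 to 9.49 ± 1.38 FPKM (adjusted p = 0.00131), and the haem oxygenase gene Hmox2 from 69.5 ± 17.1 to 24.3 ± 4.27 FPKM (adjusted p = 0.00316). Cyb5r1 fell from 35.6 ± 9.86 to 13.1 ± 1.82 FPKM (adjusted p = 0.00507). Uros, Hmox2 and Cyb5r1 were highest in control replicate 4, as were the neuron sums, whose part was not tested. Of 12 tested regulators of P450 genes 2 rose, Vdr and the partner receptor Rxra (0.90 ± 0.23, adjusted p = 0.0206), and 0 fell with limma, also at an unadjusted p under 0.05. The liver regulators Nr1i2 and Hnf4a were listed at 0 in all 6 libraries. Of 7 tested genes of arachidonic acid and epoxide handling 2 rose, Ephx2 and Alox5, and 1 fell, the joined Ephx4 and Brdt row. The same background of 10.9% higher and 27.2% lower stands beside this list and the regulators.

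The remaining members were intermediate or low. Cyp20a1, an enzyme without a settled substrate, was at 8.93, 9.27 and 8.07 FPKM in controls and 11.8, 12.8 and 14.1 FPKM in TNF libraries, without overlap (0.51 ± 0.18, adjusted p = 0.0612), and it passed without TNF replicate 1 (adjusted p = 0.0416, within 0.0416 to 0.215 over the 6 omissions). Cyp4x1 reached 1 FPKM in 2 controls and was not tested, at 1.39, 1.64 and 0.614 FPKM against 0.0926, 0.0526 and 0.103 FPKM in TNF libraries. Without the filter on low values its groups differed by −1.001 (adjusted p = 0.0177), and by −1.01 without TNF replicate 1 (adjusted p = 0.0449). Cyp2u1 was at 1.37 ± 0.489 and 0.597 ± 0.231 FPKM. Cyp4f17 was at 0.656 ± 0.480 and 1.53 ± 0.217 FPKM (adjusted p = 0.0755), Cyp2d22 at 1.06 ± 0.496 and 1.55 ± 1.14 FPKM (adjusted p = 0.714) and the second Cyp2a5 row at 2.70 ± 0.965 and 3.57 ± 1.55 FPKM (adjusted p = 0.529).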

How the data were processed

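Bulk RNA sequencing covered 3 control and 3 TNF libraries. Per the labels' protocols, GFP-positive cells were sorted into a lysis reagent, and RNA was amplified and made into Nextera libraries. Per the submitters' processing notes, bcl2fastq, Cuffdiff 2.2.1, TopHat2 2.1.1, FastQC 0.10.1 and the build mm10 are named, without role or settings. The authors deposited 1 table of FPKM values, 99.98% of those above 0 having decimals, so count models were not run. It held 0 columns of other samples.

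The test was limma 3.58.1 (R 4.3.3) with a mean-variance trend on log2(FPKM + 1), so with a pseudocount of 1, over rows reaching 1 FPKM in 3 or more libraries, with the 2 groups as the only term and Benjamini-Hochberg adjustment over 15037 rows at 0.05. The procedure was tested on simulated data. Single values were tested by exact permutation. Library omissions kept the same rows. Positions are those of the table, counted from 1, and 52 of the 96 P450 rows have the bounds of GENCODE M21 genes. That annotation gave exon overlaps and the 50-base stretches shared between transcripts. The rule for named genes took Cyp2g1, Cyp2a5, Cyp1a2 and every tested P450 row with a call or a group mean of 5 FPKM or more. It added per pathway list the called genes of smallest p, at most 4, with Por, Ahr, Cyp51, Ptgis and Tbxas1, and per marker list the 2 of highest mean, given only beside P450 results. Cyp1b1, the other low P450 genes, Hsd3b7, Sec14l3, Sult1d1, Krt8, Krt18, Hes1, Pdgfra, Kdr, Nr1i2 and Hnf4a fall outside it and were chosen after their values were seen. So do Col1a1, Col1a2, Lum, Ahrr, Tiparp, Nqo1, Aldh3a1, the joined Ugt1a row and Nfe2l2. The members and lists were chosen with earlier results of these data known. Alternatives comprised another pseudocount, 2 other filters, 3 scalings, 2 other thresholds, a robust variance, a replicate block and library omissions.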

Additional observations from a re-analysis of the deposited data

How the results depend on the processing

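Of 401 values of 24 named P450 rows under 17 alternatives, 308 kept their direction and side of the threshold, 42 lost a call, 32 gained one and 19 changed direction, all of the last for rows without a call as reported. The numbers of higher and lower P450 rows (2 and 9 as reported) were 3 and 6 without the filter on low values and 1 and 5 with a filter of 5 FPKM. They were 7 and 7 with median-of-ratios scaling, 4 and 7 with upper-quartile scaling and 0 and 17 scaled to HBC markers. At an adjusted p below 0.01 they were 2 and 4, and without control replicate 4 and TNF replicate 1 together 7 and 15. Without 1 library they ran from 2 to 5 and from 4 to 10. The 5718 rows called among all rows became 3291 at an adjusted p below 0.01, 9725 scaled to HBC markers and 8811 without both libraries, and ran from 3740 to 7151 without 1 library; the cause was not tested.

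Scaling to HBC markers moved the median of all rows from −0.22 to −1.51, median-of-ratios scaling moved it to 0.00 and upper-quartile scaling to −0.09. Scaled to HBC markers, Cyp20a1 was at −0.83, Cyp4f16 at −0.83, Cyp4f13 at −1.18, Cyp2j9 at −0.46 and Cyp2f2 at −0.80. Under median-of-ratios scaling Cyp39a1, Cyp2j6 and Cyp2s1 were at 0.13, 0.19 and 0.12, and under upper-quartile scaling at 0.039, 0.10 and 0.0369. Over single omissions Cyp39a1 ran from −0.45 to 0.12, Cyp2j6 from −0.35 to 0.14 and Cyp2s1 from −0.23 to 0.14, and Cyp2s1 was at 0.0487 without both libraries.

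Replicate numbers 1 and 4 occur in both groups, but nothing says that they mark shared animals or batches. Deviations of same-numbered libraries from their group means correlated at −0.06 and −0.09. With the replicate number as a block, 2990 of all rows were called, with 2 P450 rows higher and 6 lower. Cyp39a1 was then at 0.0799, Cyp2j6 at 0.16, and the calls of Cyp46a1, Cyp4f15 and the second Cyp2g1 row were lost (adjusted p = 0.104, 0.301 and 0.0744). Read depth is unknown, so values below 1 FPKM carry an unknown counting error.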
